A study of Homo sapiens with 4 samples.

Results

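N-linked glycosylation attaches a preformed sugar tree to proteins as they enter the endoplasmic reticulum (ER). The tree is built stepwise on the lipid dolichol by the ALG enzymes, moved to asparagine by the oligosaccharyltransferase complex, and then trimmed so that the lectins calnexin and calreticulin hold unfinished glycoproteins until they fold. Several genes of this path are known to be switched on when unfolded proteins build up in the ER.

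The 41 genes described here were listed by function: 12 enzymes of glycan assembly, 10 genes of dolichol and sugar supply, 9 oligosaccharyltransferase subunits, 7 glucosidase and calnexin cycle genes and 3 mannosidases. The lists were drawn up with earlier results of these data known, so their shares beside the background are descriptions only. A gene was measured where a probe set carried its symbol and no other, and the brightest such probe set stood for it. This found 36 of the 41, out of 22411 genes in all. ALG1, ALG11, DDOST and OSTC each had 1 probe set that carried several symbols, and PMM2 had no named probe set, so these 5 genes were not analysed here.

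Levels were measured on Affymetrix arrays in HCT116, an established human colon cancer line. Cells received plasmids expressing PRSS8 by transient transfection, or the vector alone, with 2 arrays per group numbered 1 and 2. PRSS8 encodes prostasin, a membrane-anchored serine protease of epithelial cells. The labels give neither the share of cells that took up a plasmid nor the time to harvest, and in such bulk RNA fewer responding cells and a smaller response per cell cannot be told apart.

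All levels are log2 values, and every difference is PRSS8 minus control, so that 1 unit is a doubling. PRSS8 itself stood at 18.55 and 18.07 on the PRSS8 arrays (replicates 1 and 2), against 10.45 and 11.18 on the control arrays, so the arrays matched their labels. The 5 epithelial marker genes (EPCAM, CDH1, KRT8, KRT18 and KRT19) had mean levels from 8.61 to 14.36. The measured markers of fibroblasts (4 of 5), leukocytes (4 of 5) and endothelium (3 of 3) had mean levels between 3.26 and 4.02. Those means lay below the median gene (4.22), though the fibroblast marker DCN stood at 5.13 on the control array of replicate 2. Arrays of one number resembled each other more than arrays of one group: Pearson's r over all genes was 0.996 for number 1 and 0.989 for number 2, against 0.934 within the PRSS8 group and 0.930 within the control group. Differences are therefore also given within each number, as pair 1 and pair 2.

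The promoters of 3 of these genes hold the ER stress response element, CCAAT and CCACG with 9 free bases between them, through which transcription factors of the ER stress response act. They are shown because this element is a described route from ER stress to chaperone genes, and the letters were searched on both strands in 250 bases before to 50 after each start (RefSeq, GRCh38.p14). Each line gives bases upstream of the start in the direction of the gene, with the element in capitals.
CALR: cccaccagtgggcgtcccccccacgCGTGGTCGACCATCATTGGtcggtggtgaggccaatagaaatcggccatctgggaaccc
CANX: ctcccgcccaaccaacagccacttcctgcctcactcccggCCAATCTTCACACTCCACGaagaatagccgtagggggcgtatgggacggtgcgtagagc
ALG12: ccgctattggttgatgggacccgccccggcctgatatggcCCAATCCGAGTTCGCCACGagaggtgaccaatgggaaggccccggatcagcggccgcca
The stretches are chr19:12938359-12938442 (plus strand), chr5:179698738-179698836 (plus strand) and chr22:49918514-49918612 (minus strand). Each was read from the RefSeq table. In CALR the element reads on the opposite strand, 225 to 207 bases before the start, in CANX it lies 151 to 133 bases before the start used here (3 of its 4 RefSeq promoters hold the element), and in ALG12 134 to 116 bases before it. RefSeq promoters were found for 36 of the 41 genes, which are not the same 36 as the measured ones: 31 of them were measured. TUSC3, MAN1A2, STT3B, RPN1 and MOGS had no promoter entry and were not searched. Of the 36 genes with a promoter 3 (8.33%) held the element, against 0.0916% of all 27305 genes with a promoter, or 27 of 35116 promoters (0.0769%). The shorter sequence CCACG, which is part of the element, was present in 25 of these 36 genes (69.4%), 20 of them measured, and in 42.1% of all genes. A related element, ATTGG and CCACG with 1 free base between them, was found in 0 of the 36 and in 0.0696% of all genes, and the core of the amino acid response element, TGATGNAAN, in 0 of the 36 and in 4.45% of all genes. A match describes the letters and not a bound site.

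Across the module, more genes were higher than lower with PRSS8 in both pairs, but no gene passed the test. Higher in both pairs were 19 of the 36 genes (52.8%), where the background was 26.0% of all genes and 38.0% of the 5788 brighter genes, those averaging at least 6 over the arrays. Lower in both pairs were 6 of the 36 (16.7%), against 24.5% and 15.0%, and in 11 the sign differed between the pairs. The median difference was 0.18 for the module and 0.0006 over all genes. Within the pairs it was 0.04 and 0.42, so the larger shift lay in pair 2, where the brighter genes as a whole (0.22, against -0.02 in pair 1) and the epithelial markers (0.78, against 0.09) also had their larger median. The part of that wider shift in the module's values was not tested. Taken with its sign, the difference was higher in pair 2 than in pair 1 in 31 of 36 genes (86.1%). The same held for 53.1% of all genes and 76.7% of the brighter ones. This count includes genes with a smaller drop in pair 2, such as MAN1A1 and PRKCSH.

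In limma, with Benjamini-Hochberg adjustment over all 22411 genes, 0 of the 36 were called higher and 0 lower (background 0.0% in each direction), and 0 had an unadjusted p under 0.05. Adjusted p was 1 for every one of the 36 after rounding, and the smallest unadjusted limma p-values were those of CALR (0.162) and ALG2 (0.168). PRSS8 also had an adjusted p of 1 in this limma fit, so that even a 180.3-fold difference did not pass. This fit leaves out the replicate number, and with it as a block limma gave PRSS8 an adjusted p of 0.0765. An exact permutation test of 2 against 2 cannot go below 0.333. Both PRSS8 arrays stood above both control arrays in 3 genes (ALG14, RPN1 and CALR), 8.33% against 5.53% of all genes, and below them in 2 (DOLK and PRKCSH), 5.56% against 5.56% of all genes. Those shares are near the background of all genes. Of the 26 members that averaged at least 6, 3 stood above (11.5%) and 2 below (7.69%). Among all brighter genes it was 6.12% above and 2.21% below, and the difference from these small counts was not tested. RPN1 stayed above and PRKCSH below under all 3 further normalizations. The groups overlapped for CALR after quantile normalization and median centring, for ALG14 after median centring and for DOLK after quantile normalization. Other genes then stood above instead: ALG2 after quantile normalization and cyclic loess, and DPAGT1, DOLPP1 and DAD1 after median centring.

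**Figure D1:**
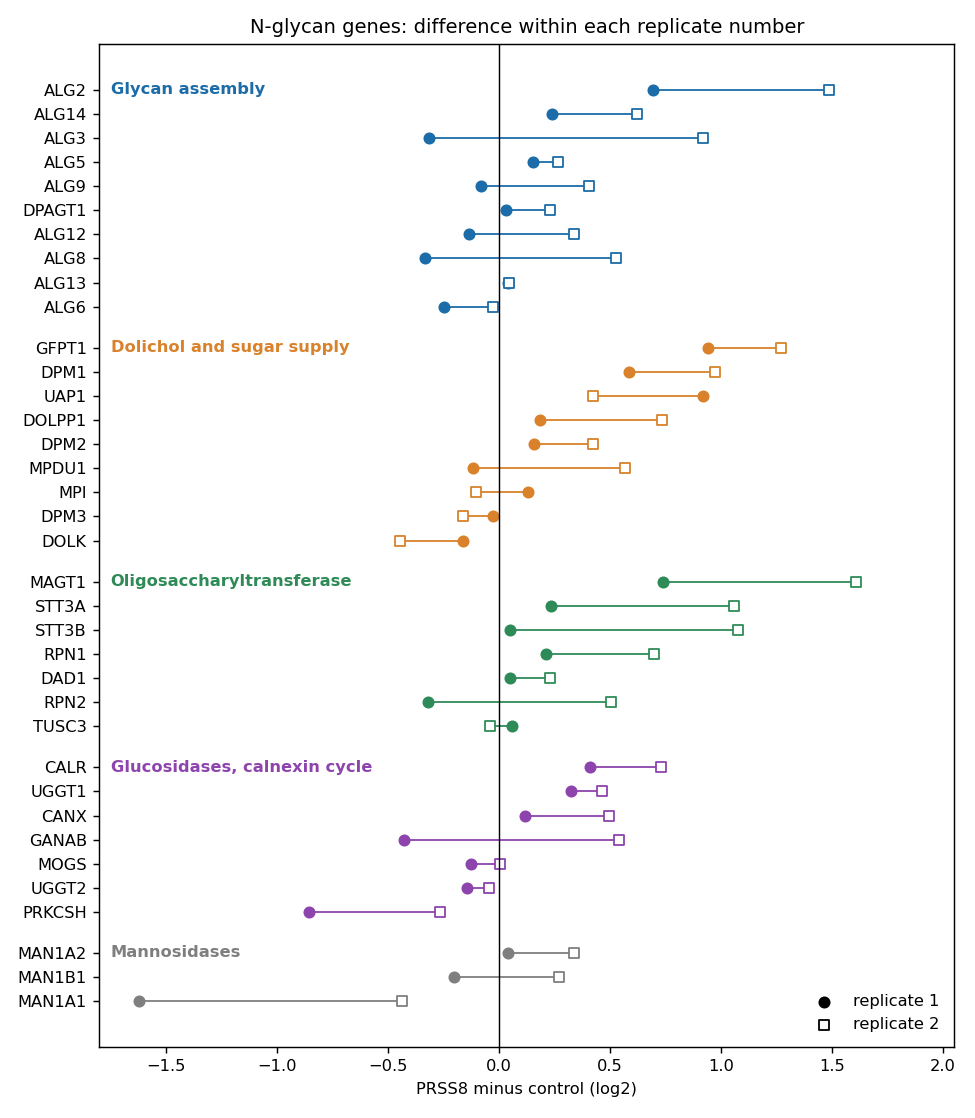
PRSS8 minus control (log2, horizontal axis) for each of the 36 measured genes, by role; filled circles are replicate 1 and open squares replicate 2. Most squares lie right of their circles, and MAN1A1 and PRKCSH lie farthest to the left.

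By step of the path, oligosaccharyltransferase subunits had the largest median difference, 0.45, with 0.06 in pair 1 and 0.70 in pair 2, and 5 of 7 were higher in both pairs and 0 lower. Dolichol and sugar supply had a median of 0.29 (0.16 and 0.42), with 5 of 9 higher and 2 lower. Assembly enzymes had a median of 0.15 (-0.02 and 0.37), with 5 of 10 higher and 1 lower. Glucosidase and calnexin cycle genes had a median of 0.06 (-0.13 and 0.46), with 3 of 7 higher and 2 lower. The differences between these medians were not tested. After quantile normalization the calnexin cycle median was -0.05. Leaving out an array unbalances the replicate numbers, and the calnexin cycle median then ran from -0.47 (without control replicate 2) and -0.18 (without PRSS8 replicate 1) to 0.72 (without control replicate 1) and 0.67 (without PRSS8 replicate 2), the supply median from -0.24 (without PRSS8 replicate 2) and -0.04 (without control replicate 1) to 0.21, the oligosaccharyltransferase median from 0.10 to 0.88 and the assembly median from 0.04 to 0.33.

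**Figure D2:**
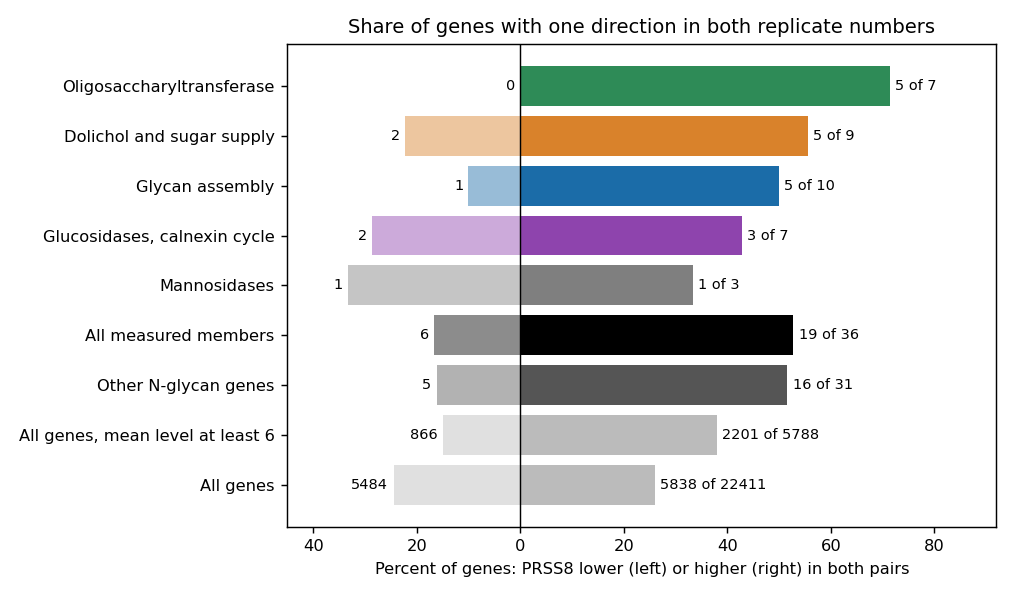
Percent of genes (horizontal axis) that were lower (left, pale) or higher (right, dark) with PRSS8 in both pairs, with the number of genes beside each bar. Of the measured module 19 of 36 genes were higher and 6 lower, against 5838 and 5484 of all 22411 genes.

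In 4 genes PRSS8 was at least 1.5-fold higher in both pairs: ALG2, GFPT1, DPM1 and MAGT1. That is 11.1% of the 36, against 0.46% of all genes and 1.66% of the brighter genes. No member was 1.5-fold lower in both pairs (background 0.156% of all genes and 0.466% of the brighter ones). The 4 genes come from 3 steps of the path, and each is described with its step below. DPM1 lay just inside the limit with 1.5-fold in pair 1 and dropped out after median centring, which left 3 of 36 (8.33%, against 0.509% of all genes). UAP1 lay just outside it with 1.34-fold in pair 2.

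Supply genes make the activated sugars and the lipid carrier. GFPT1, the rate-limiting enzyme of the hexosamine pathway that feeds UDP-GlcNAc, stood at 11.54 and 9.30 on the PRSS8 arrays, against 10.60 and 8.03 on the control arrays. The replicate 1 arrays were far brighter than the replicate 2 arrays, so the groups overlapped although PRSS8 was higher within each number. The difference was 1.11 (SE 1.32), or 1.92-fold in pair 1 and 2.41-fold in pair 2. UAP1, which makes UDP-GlcNAc at the end of the same pathway, stood at 8.68 and 7.09 on the PRSS8 arrays, against 7.77 and 6.67 on the control arrays (difference 0.67, SE 0.80). Its difference was larger in pair 1 (0.92) than in pair 2 (0.42).

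DPM1 is the catalytic subunit of dolichol-phosphate-mannose synthase, which supplies mannose inside the ER. It stood at 13.12 and 10.92 on the PRSS8 arrays, against 12.53 and 9.95 on the control arrays, again split mainly by replicate number. Its difference was 0.78 (SE 1.32), made of 0.59 (pair 1) and 0.97 (pair 2). The stabilising subunits of the same enzyme had smaller differences: DPM2 0.16 and 0.42, and DPM3 -0.03 and -0.16 in pairs 1 and 2. DOLPP1, which recycles the dolichol carrier after transfer, stood at 6.30 and 7.13 on the PRSS8 arrays, against 6.12 and 6.39 on the control arrays (difference 0.46, SE 0.46). DOLK, the kinase that makes new dolichol phosphate, ran the other way. It stood at 7.30 and 7.36 on the PRSS8 arrays, against 7.47 and 7.81 on the control arrays, and the groups did not overlap, with a gap of 0.10. The difference was -0.31 (SE 0.51, adjusted p = 1 in limma). MPDU1, needed for the use of the mannose donor, differed by -0.12 and 0.57 in pairs 1 and 2, and MPI, which makes mannose 6-phosphate, by 0.13 and -0.10.

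Assembly enzymes add the sugars one at a time. ALG2, a mannosyltransferase that works on the cytosolic face of the ER, stood at 7.66 and 6.95 on the PRSS8 arrays, against 6.97 and 5.46 on the control arrays. The lower PRSS8 array lay 0.02 under the higher control array, and the control array of replicate 2 was far below the other 3. Its difference was 1.09 (SE 0.67), or 1.62-fold in pair 1 and 2.80-fold in pair 2. ALG14, the membrane anchor of the transferase that adds the second GlcNAc, stood at 6.65 and 6.49 on the PRSS8 arrays, against 6.41 and 5.87 on the control arrays. Here the groups did not overlap, with a gap of 0.08, and the difference was 0.43 (SE 0.39, adjusted p = 1 in limma). ALG13, its catalytic partner, differed by only 0.04 in pair 1 and 0.05 in pair 2.

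The remaining assembly genes had smaller differences or differed in sign between the pairs. ALG5, which makes the glucose donor, stood at 6.06 and 5.71 on the PRSS8 arrays, against 5.91 and 5.45 on the control arrays (difference 0.21, SE 0.34). DPAGT1, which starts the tree and is the target of tunicamycin, differed by 0.03 and 0.23 in pairs 1 and 2. The lumenal mannosyltransferases ALG3, ALG9 and ALG12 and the glucosyltransferase ALG8 were all lower in pair 1 (-0.32, -0.08, -0.13 and -0.33) and higher in pair 2 (0.92, 0.40, 0.34 and 0.53). ALG12 thus carried the ER stress response element without a shared direction. ALG6, which adds the first glucose, stood at 5.07 and 4.50 on the PRSS8 arrays, against 5.32 and 4.53 on the control arrays (difference -0.14, SE 0.36).

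**Figure D3:**
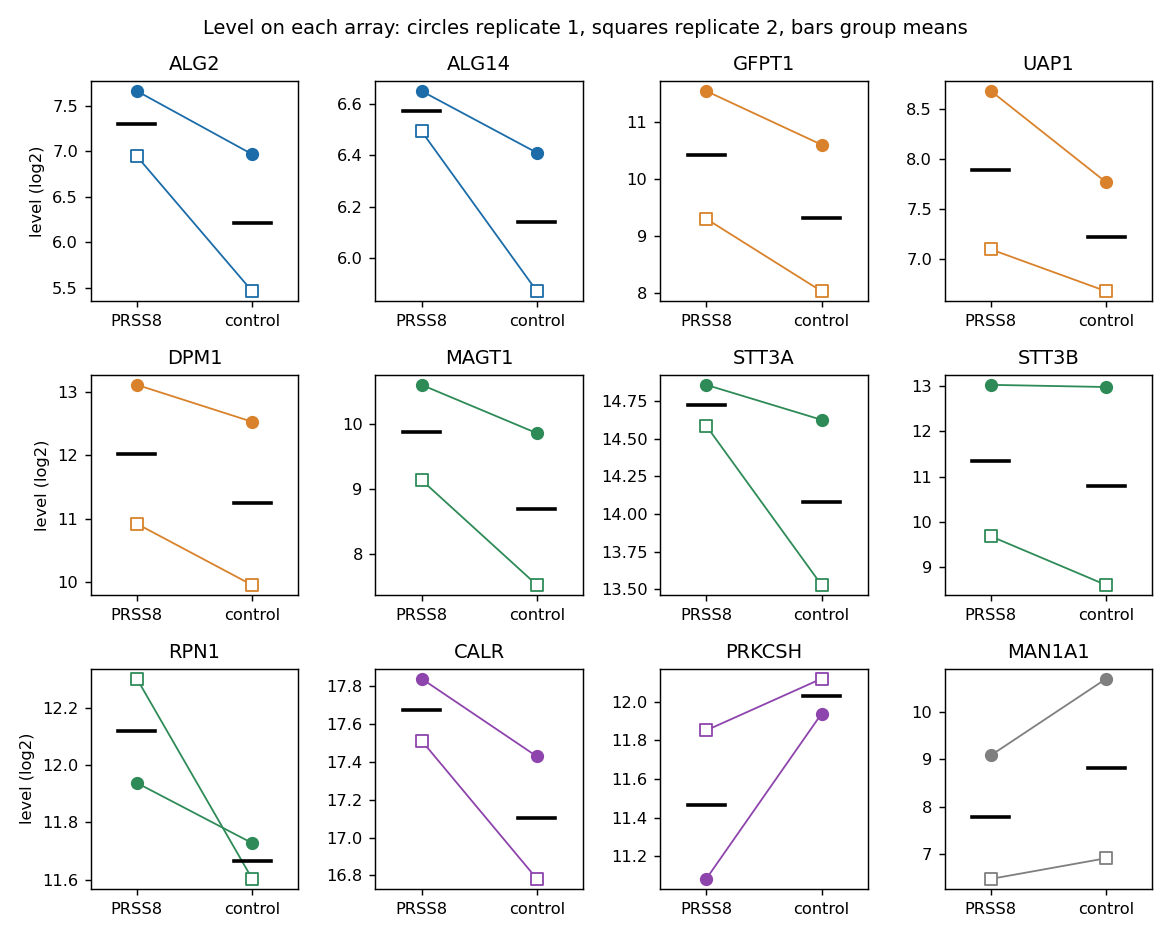
Log2 level of 12 of the genes on each of the 4 arrays (vertical axis, scaled per gene), PRSS8 left and control right; lines join arrays of one replicate number and black bars are group means. In GFPT1, DPM1, MAGT1 and STT3B the replicate numbers lie farther apart than the groups, while CALR, ALG14 and RPN1 show no overlap between groups.

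Oligosaccharyltransferase exists as 2 complexes, built on the catalytic subunit STT3A, which works as the chain enters the ER, or STT3B, which acts on sites that were missed. MAGT1, a thioredoxin-like subunit of the STT3B complex, stood at 10.59 and 9.14 on the PRSS8 arrays, against 9.85 and 7.53 on the control arrays. Both numbers showed the higher level with PRSS8, but the groups overlapped because replicate 2 was dim in both. The difference, 1.17 (SE 1.12), was the largest of the 36 genes, at 1.67-fold in pair 1 and 3.05-fold in pair 2. TUSC3, which can take the place of MAGT1, lay between 3.47 and 3.69 on all arrays, below the median gene, and differed by 0.06 and -0.04 in pairs 1 and 2.

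STT3A stood at 14.86 and 14.59 on the PRSS8 arrays, against 14.63 and 13.53 on the control arrays, and the groups overlapped by 0.04. Its difference was 0.65 (SE 0.63), 0.23 in pair 1 and 1.06 in pair 2. STT3B stood at 13.03 and 9.68 on the PRSS8 arrays, against 12.98 and 8.61 on the control arrays, a gap of 3.86 between the replicate numbers that was the widest of the 36 genes. Its differences, 0.05 in pair 1 and 1.08 in pair 2, were close to those of STT3A only in pair 2, where both were about 2-fold higher (2.11-fold for STT3B and 2.09-fold for STT3A). RPN1, a shared subunit that binds the chain being glycosylated, stood at 11.94 and 12.30 on the PRSS8 arrays, against 11.73 and 11.60 on the control arrays. The groups did not overlap, with a gap of 0.21, and the difference was 0.45 (SE 0.72, adjusted p = 1 in limma). Of the other shared subunits, RPN2 differed by -0.32 and 0.50, and DAD1 by 0.05 and 0.23 in pairs 1 and 2.

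After transfer, glucosidases trim the tree to the single glucose that the lectins bind. Calreticulin (CALR), the soluble lectin, stood at 17.84 and 17.51 on the PRSS8 arrays, against 17.43 and 16.78 on the control arrays. Both PRSS8 arrays lay above both control arrays, with a gap of 0.08, and the difference was 0.57 (SE 0.35, adjusted p = 1 in limma), made of 0.41 (pair 1) and 0.73 (pair 2). Calnexin (CANX), its membrane-bound relative, stood at 16.25 and 14.30 on the PRSS8 arrays, against 16.13 and 13.80 on the control arrays. It differed by 0.12 and 0.49 in pairs 1 and 2, and the groups overlapped across the replicate numbers. Both lectin genes were higher in both pairs, as were 19 of the 36 genes. Neither reached 1.5-fold in pair 1, and in pair 2 CALR did (1.66-fold) and CANX did not (1.41-fold). Both hold the ER stress response element shown above, as does ALG12, whose sign differed between the pairs. The part of the element was not tested.

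UGGT1, the folding sensor that puts glucose back on misfolded glycoproteins, stood at 10.09 and 7.98 on the PRSS8 arrays, against 9.77 and 7.52 on the control arrays (difference 0.39, SE 1.19). Its paralog UGGT2 differed by -0.14 and -0.05 in pairs 1 and 2. Among the trimming enzymes no gene was higher in both pairs. PRKCSH, the beta subunit of glucosidase II, stood at 11.08 and 11.85 on the PRSS8 arrays, against 11.94 and 12.12 on the control arrays. Both PRSS8 arrays lay below both controls, with a gap of 0.09, and the difference was -0.56 (SE 0.76, adjusted p = 1 in limma). GANAB, the catalytic subunit of the same enzyme, differed by -0.43 in pair 1 and 0.54 in pair 2, and MOGS, the glucosidase that acts first, by -0.13 and 0.01.

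Mannosidases cut the tree further, in the ER as a timer for degradation and in the Golgi on the way to complex glycans. MAN1A1, a Golgi mannosidase, had the most negative difference of the 36 genes. It stood at 9.09 and 6.47 on the PRSS8 arrays, against 10.71 and 6.91 on the control arrays, a difference of -1.03 (SE 1.60). PRSS8 was lower within both numbers, at 0.325 of control in pair 1 and 0.738 in pair 2, and the groups overlapped because the replicate 2 arrays were dim in both. MAN1A2, its close relative, stood at 9.30 and 7.0 on the PRSS8 arrays, against 9.26 and 6.66 on the control arrays (difference 0.19, SE 1.25). MAN1B1, the mannosidase of early ER quality control, differed by -0.20 and 0.27 in pairs 1 and 2.

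**Figure D4:**
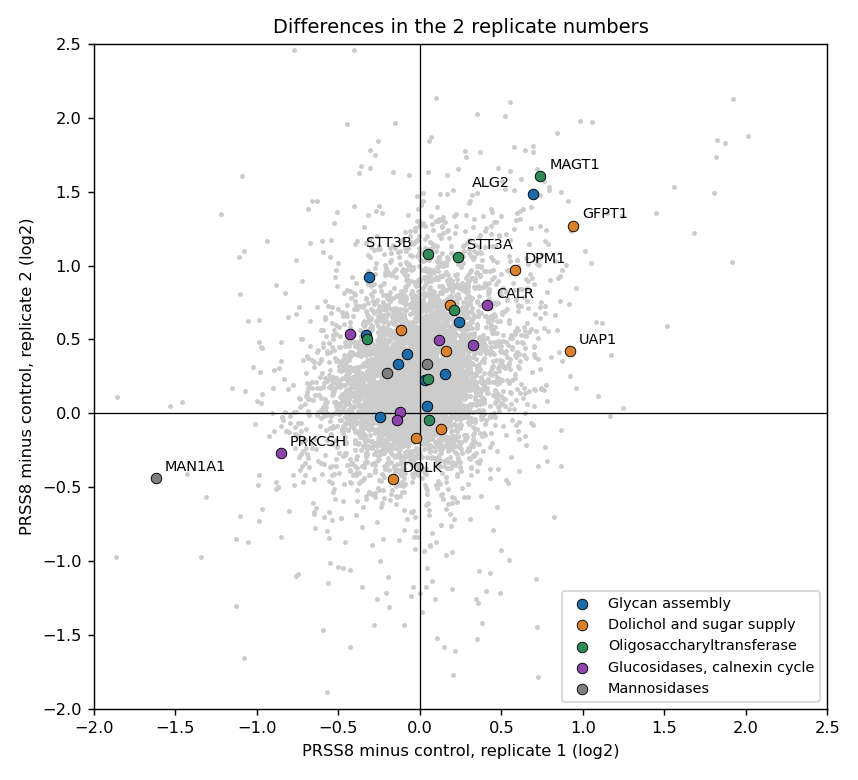
PRSS8 minus control (log2) in replicate 1 (horizontal axis) against replicate 2 (vertical axis) for the 36 genes, coloured by role, over all genes averaging at least 6 (grey; 25 of them lie outside the axes). GFPT1, ALG2, MAGT1 and DPM1 lie in the upper right, MAN1A1 and PRKCSH in the lower left.

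The replicate numbers differed more than the groups for most of the module. In 31 of 36 genes (86.1%) the mean gap between replicate 1 and replicate 2 exceeded the PRSS8 difference in size, close to the shares of all genes (84.9%) and of the brighter ones (89.0%). The median size of that gap was 0.68, and that of the PRSS8 difference 0.26. The labels call the replicates biological and say nothing more about cultures or runs, and the part of culture, labelling or processing in the gap was not tested. The deposited columns also differed by number in their distribution: the highest value was 19.93 on the PRSS8 and the control array of replicate 1, and 19.46 (PRSS8) and 19.44 (control) on those of replicate 2. Median levels over transcript clusters were 3.61 (PRSS8) and 3.60 (control) for replicate 1, and 3.86 (PRSS8) and 3.92 (control) for replicate 2. Whether the 4 arrays were normalized as one set is not stated, so a gap between the numbers need not be a gap in RNA. Of the 26 measured genes that averaged at least 6, 16 were higher in both pairs (61.5%), and of the 10 dimmer ones 3 (30.0%). The same shares over all genes were 38.0% and 21.9%.

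Other genes of N-glycosylation, listed by function beside the module, were counted in the same way. Of 37 such genes 31 were measured, and 16 (51.6%) were higher and 5 lower in both pairs, with a median difference of 0.14 and 0 called in either direction by limma. The 5 measured supply genes were all higher in both pairs. Among them, NUS1, a subunit of the enzyme that makes the dolichol chain, differed by 0.43 and 0.45, and GMPPA, a regulator of GDP-mannose synthesis, by 0.32 and 0.64. Of 12 ER lectins and their partners 8 were higher in both pairs. ERLEC1, a lectin of ER-associated degradation, stood at 9.74 and 7.82 on the PRSS8 arrays, against 8.89 and 6.91 on the control arrays, and LMAN1, a cargo lectin that leaves the ER, at 14.76 and 9.67 on the PRSS8 arrays, against 14.04 and 8.63 on the control arrays. Both were at least 1.5-fold higher in both pairs, and in both the groups overlapped across the replicate numbers. The 2 measured small oligosaccharyltransferase subunits, KRTCAP2 and OST4, were lower in pair 1 and higher in pair 2.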

How the data were processed

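Total RNA of 4 HCT116 samples (2 PRSS8, 2 control) was measured on Affymetrix arrays. The deposited values are log2 levels per probe set; RMA in Affymetrix Expression Console (version 1.3.1) produced them, per the submitters' processing notes. The notes do not say whether the 4 arrays were normalized as one set. No scanner files were used, so detection was not computed, and with 4 arrays precision is limited. Of 70523 probe sets, 67528 transcript clusters were kept, of which 23781 had 1 symbol; symbols were updated through Entrez identifiers and older names, which gave 22411 genes. No filter on dim genes was applied.

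The comparison used limma 3.58.1 in R 4.3.3 (lmFit, eBayes with an intensity trend, two-sided, Benjamini-Hochberg over all genes, threshold 0.05, 2 residual degrees of freedom). The code was tested on simulated data. Beside the fit, genes were counted by direction in both pairs, by overlap of groups and by a fold of 1.5. Standard errors (SE) are moderated: each draws on the spread of other genes of similar level as well as on the gene's own. An SE can therefore be larger or smaller than the gene's own arrays would give. Without a block the SEs also include the gap between replicate numbers. The p-values thus do not measure the spread of that gene alone.

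The members and lists were chosen with earlier results of these data known. Array values are given for genes whose groups did not overlap and, per role, for the 4 genes of largest difference with one sign in both pairs. Alternatives were 3 normalizations, a level filter, averaging all probe sets per gene, other variance models, the replicate number as a block and leaving out each array. Promoters are RefSeq's.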

Additional observations from a re-analysis of the deposited data

How the results depend on the processing

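Counts of called genes stayed at 0 of 36 in limma under all 12 alternatives, also where leaving out control replicate 1 or control replicate 2 gave calls among other genes. PRSS8 itself passed without control replicate 1 (difference 7.13) and without control replicate 2 (7.86). Genes with both PRSS8 arrays below both controls numbered 1 instead of 2 after quantile normalization. With an array left out, where fewer arrays must be separated, 9 to 18 genes lay above and 5 to 9 below. Separation is easier to reach with fewer arrays, and the shares of all genes in those fits are not given here. These counts therefore have no background and cannot be read as a larger response. The calnexin cycle median was -0.049 after quantile normalization and ran from -0.47 to 0.72 with an array left out, and the supply median from -0.24 to 0.21. Such fits carry the gap between replicate numbers, and in them differences took either sign for ALG5 (-0.024 to 0.44), ALG6 (-0.53 to 0.26), DPM1 (-0.51 to 2.07), GFPT1 (-0.18 to 2.39), UAP1 (-0.13 to 1.47), STT3B (-1.62 to 2.75), UGGT1 (-0.73 to 1.52), CANX (-0.86 to 1.47), MAN1A1 (-2.93 to 0.87) and MAN1A2 (-1.11 to 1.49). The other 9 genes given array by array kept their direction under every alternative, among them MAGT1 (0.01 to 2.33), ALG2 (0.34 to 1.84), CALR (0.25 to 0.89) and PRKCSH (-0.95 to -0.18). Genes higher in both pairs numbered 19 or 20 and genes lower 4 to 7 under the 3 normalizations, the level filter and the mean of probe sets. The background moved as well. Over all genes the share higher in both pairs was 30.6% after quantile normalization, 31.7% after median centring and 30.1% after cyclic loess. It was 26.0% in the main fit. The module stood at 55.6% under each of these normalizations and at 52.8% in the main fit.

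Deviations of same-numbered arrays from their group means correlated across genes (Pearson's r = 0.91, on the values without a block). The replicate number was also fitted as a block, but the labels state no shared culture or day and there are only 2 pairs. In that replicate block fit, limma called 0 of 36 genes at an adjusted p under 0.05, the smallest adjusted p being 0.94; 7 of 36 had an unadjusted p under 0.05 (ALG2, GFPT1, MAGT1, MAN1A1, UAP1, DPM1 and CALR), where 5.24% of all genes did. The 7 genes all averaged at least 6, and the share among the brighter genes in that fit is not given here. The count therefore has no background of like level. The block leaves 1 residual degree of freedom. PRSS8 had an adjusted p of 0.0765 in the limma block fit. Depth was limited by signal: TUSC3 lay below the median gene, where a small difference does not show an unchanged gene.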

Other observations

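Genes of Golgi glycan processing, the steps that follow the ones described above, were counted in the same way. Of 12 measured genes, 3 were higher and 4 lower in both pairs, with a median difference of -0.06, and limma called 0 of them. FUT8, which adds the core fucose, differed by 0.29 and 0.30 in pairs 1 and 2. MGAT4B, a branching GlcNAc transferase, differed by -0.28 and -0.26. ST6GAL1, which caps glycans with sialic acid, stood at 4.33 and 4.40 on the PRSS8 arrays, against 4.46 and 4.50 on the control arrays, a level near the median gene. It was the one gene of the 31 other N-glycan genes (3.23%) whose groups did not overlap, with a gap of 0.06. Of all genes, 5.53% had both PRSS8 arrays above both control arrays and 5.56% had them below. MANEA, an endomannosidase of the Golgi, differed by -0.75 in pair 1 and 0.13 in pair 2. Whether ER and Golgi genes differed as groups was not tested.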
